A study of Mus musculus with 12 samples.

Results

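The splicing regulators described here are 40 genes whose proteins decide which exons enter an mRNA, taken by symbol from the authors' deposited tables. They include Nova1 and Son, whose own mRNAs carry an editing site that changes an amino acid. Of the 40 genes, 39 were among the 15191 genes of the gene table, all 40 had bins in the exon table (696 of the 149137 bins with a p), and 2 of the 143 editing sites lay in them. Rbfox3 was not found under that symbol in the gene table and was followed by its exon bins only.

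The animals were C57BL/6 males, and RNA was taken from their frontal cortex. The 6 knockout libraries carried Adar2-/-/Gria2R/R and the 6 litter mate control libraries Adar2+/+ Gria2R/R, and age is not given. ADAR2, the product of Adarb1, converts adenosine to inosine where RNA folds into a duplex, and ribosomes and sequencers read inosine as guanosine. Gria2R, present in both groups, is an allele in which the genome already encodes the arginine that ADAR2 editing otherwise creates in this glutamate receptor subunit, so none of the animals depended on ADAR2 for that codon. All values below are the authors' group values and p-values. The tables hold no value per library, so depth, SD and the number of animals showing a direction are unknown.

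Splicing regulators bind short motifs in pre-mRNA and recruit or block the splicing machinery. SR proteins mostly promote inclusion of the exons they bind, hnRNP proteins often repress it, and neuronal families such as NOVA, RBFOX, ELAV and CELF set the exon choices typical of neurons. Many of these genes also control their own mRNA by splicing in an exon that leads to its decay, so both the level and the exon use of a regulator can show a change in its control. Editing reaches this group by another route, by changing the protein that a regulator's mRNA encodes.

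Editing of both regulators was almost lost in the knockout. NOVA1 is a neuronal RNA-binding protein with KH domains that recognises YCAY motifs. Its S/G site, where editing turns a serine codon into a glycine codon, was edited in 1.10% of reads in the knockout and 25% in the control in the authors' deposited table (adjusted p = 5.53e-06). SON is a large nuclear-speckle protein needed for splicing of weak introns, many of them in cell-cycle genes. Its R/G site, an arginine codon turned into glycine, was edited in 1.38% of reads in the knockout and 33.0% in the control in the authors' deposited table (adjusted p = 2.63e-45). The differences were -23.9 points for Nova1 and -31.7 points for Son, and both sites fell by the adjusted p. Among all 143 sites 39.2% fell, and among the 22 sites with an amino acid change 86.4% fell.

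The sites lie at position 47801321 of chromosome 12 (Nova1) and position 91656334 of chromosome 16 (Son) on mm9, both in coding sequence by their amino acid labels. In the GENCODE M21 annotation of GRCm38, Nova1 is on the minus strand and Son on the plus strand. Only some codons can give these changes through 1 A-to-G change. Serine becomes glycine from AGC or AGT, which make up 16 of the 37 serine codons in the longest Nova1 coding sequence (507 residues, 5 coding exons). Arginine becomes glycine from AGA or AGG, which make up 88 of the 158 arginine codons in the longest Son coding sequence (2477 residues, 12 coding exons). The edited codon within each set was not placed, because the transcripts are of GRCm38 and the sites of mm9. Serine makes up 14.1% of the SON residues, against 7.30% of those of NOVA1.

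Set against the other amino acid sites, the pair stood low in the control and lost nearly all of its editing. Of the 22 sites, Son ranked 16th and Nova1 21st by control level. The share of the control level that remained in the knockout was 4.16% for Son and 4.40% for Nova1, the fifth and sixth smallest of the 22. Smaller shares were computed from the authors' deposited table for both Cacna1d sites (listed at 0 in the knockout), the Y/C site of Grik2 (2.42%) and the S/G site of Unc80 (2.63%). The sites of Kcna1 (4.61%) and Flna (4.70%) followed closely. For the 17 amino acid sites that fell in other genes the median share was 19.8% and the highest 86.1%, so the members stood near the low end. Coverage is unknown, so the order of neighbours that differ by little cannot be told from sampling error. What coverage adds to the larger adjusted p of Nova1 was not tested.

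**Figure D1:**
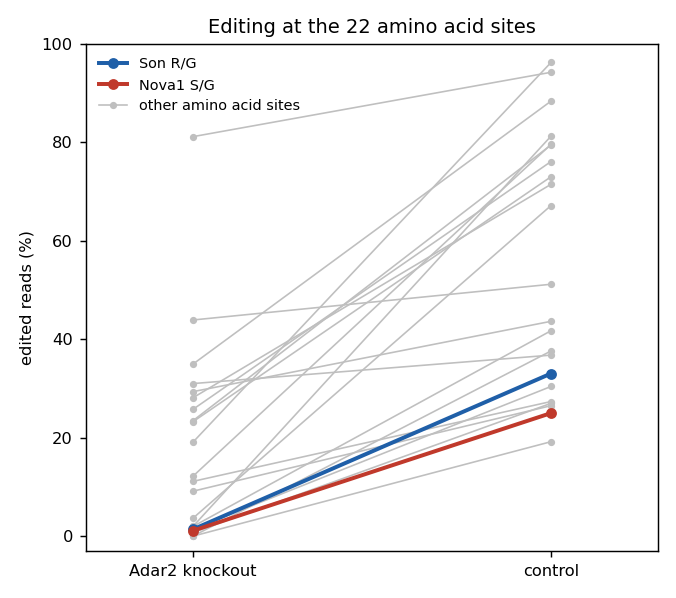
Percent of edited reads (y axis) in the Adar2 knockout (left) and the control (right) at the 22 amino acid sites, 1 line per site, as group values with no error available. Nova1 S/G lies at 1.10% in the knockout and 25% in the control, and Son R/G at 1.38% and 33.0%, both among the lower points on the control side.

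No regulator passed the test for a change in mRNA level. Of the 39 members in the gene table, 0 had an adjusted p under 0.05 in the authors' deposited table, and the adjusted p of every member was 1. Among all 15191 genes 0.0197% passed, 3 in number. At an unadjusted p under 0.05 there was 1 member of 39 (2.56%), against 1.86% of all genes, so the share in the group was near the background. The targeted gene Adarb1 itself had a log2 difference of -2.21 (adjusted p = 3.06e-126) in the authors' deposited table. The header of that table names its conditions only A and B, so each log2 difference of a gene level is given as A over B without a genotype. In bulk tissue, fewer cells of a type and less RNA per cell cannot be told apart.

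Differences of the members were small. Of the 39, 36 (92.3%) differed by less than 1.2-fold between conditions, against 91.6% of all genes. The listed genes reach down to a mean count of 15.0, the members only to 402. Of 118 other splicing genes, described further below, 100% differed by less than 1.2-fold. Their median log2 difference was -0.0055, against 0.0063 over all genes, and the median size without regard to sign was 0.05 against 0.06. In all, 18 were above 0 and 21 below. The 2 edited members were among the closest to no difference. Nova1 had a log2 difference of 0.0080 (p = 0.827) in the authors' deposited table, where its mean normalized count was 1185. Son had one of -0.0043 (p = 0.796) in the authors' deposited table, at a mean count of 15188. In fold terms the gaps between conditions were 1.006 and 1.003. Editing, a different measure, was 22.8-fold lower for Nova1 and 24.0-fold lower for Son in the knockout. The editing folds divide by knockout levels of 1.10% and 1.38% at unknown coverage, so their size is imprecise.

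Expression levels were compared per kilobase of annotated exon. By normalized count per kb, the members spread from 39.1 for Khdrbs2, which encodes the neuronal STAR protein SLM1, to 2418 for Srsf5, an SR protein gene. Rbfox1, which encodes a neuronal protein that binds UGCAUG, had 2070, and Hnrnpk, whose protein has KH domains and binds C-rich RNA, had 1842. Son had 1019 per kb and Nova1 135, the 8th and the 34th of 39. Nova2 (66.5), Srrm4 (47.4) and Ptbp1 (122) were also near the low end, Ptbp1 encoding the repressor that neurons switch off and replace by its paralog PTBP2. Ptbp2 had 523 per kb. These are per-length values of group means, and no spread is available to say which neighbours in this order differ.

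**Figure D2:**
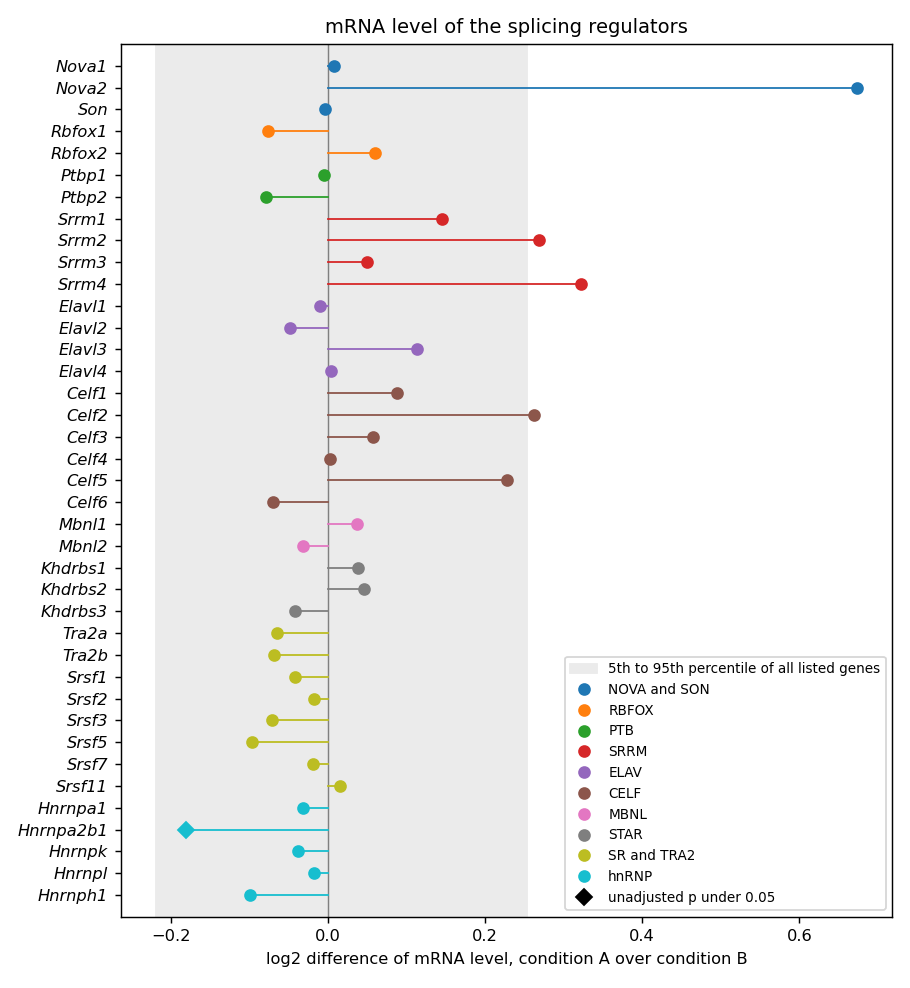
Log2 difference of mRNA level, condition A over condition B (x axis), for the 39 members in the gene table, coloured by family; the grey band spans the 5th to 95th percentile of all listed genes (-0.22 to 0.25). Nova2 at 0.67, Srrm4 at 0.32, Srrm2 at 0.27 and Celf2 at 0.26 stand outside the band, and Hnrnpa2b1 is the member with an unadjusted p under 0.05.

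The hnRNP and SR families leaned one way by small amounts. Hnrnpa2b1, which encodes a protein binding UAG-rich RNA in the nucleus and in transported RNA granules, had a log2 difference of -0.18 (p = 0.0147, adjusted p = 1) in the authors' deposited table, rank 88 of all genes by p. All 5 hnRNP members were below 0, with Hnrnpl nearest to it at -0.018 and Hnrnph1 at -0.10 (p = 0.207) in the authors' deposited table. Of the 8 SR and TRA2 genes 7 were below 0. They ranged from -0.10 for Srsf5 (p = 0.233) to 0.016 for Srsf11 (p = 0.971) in the authors' deposited table. Srsf3, whose small SR protein also aids mRNA export, had -0.07, and Tra2a and Tra2b, which encode activators that bind GAA-rich exonic elements, had -0.07 each in the authors' deposited table. The median of these 13 genes was -0.042, and 52.9% of all genes were above 0.

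The SRRM and CELF families leaned the other way. SRRM4 promotes the inclusion of neuronal microexons together with its relative SRRM3, while SRRM1 and SRRM2 are larger scaffold proteins of the splicing machinery and nuclear speckles. In the authors' deposited table Srrm4 had a log2 difference of 0.32 (p = 0.454), Srrm2 one of 0.27 (p = 0.431), Srrm1 one of 0.15 (p = 0.744) and Srrm3 one of 0.05 (p = 0.767). CELF proteins bind GU-rich RNA and act in splicing and in mRNA stability. Celf2 stood at 0.26 (p = 0.355), Celf5 at 0.23 (p = 0.326) and Celf6 at -0.07 (p = 0.692) in the authors' deposited table, and 5 of 6 CELF genes were above 0. Over the 10 SRRM and CELF genes the median was 0.12, with 9 above 0, and 0 passed. The families were joined in this way after their values were seen, and whether they differ from each other was not tested.

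Nova2, the paralog of Nova1 that is abundant in the neocortex, had the largest difference of any member. Its log2 difference of 0.67 (1.60-fold) had p = 0.186 in the authors' deposited table, at a mean count of 557. Of 2385 genes with a mean count between 400 and 800, 6 including Nova2 differed by at least as much, and 3 of these 6 had an unadjusted p under 0.05. Hnrnpa2b1 had a smaller p at a difference under 0.2. All 5 members with a difference of at least 0.2 lay above 0, with p between 0.186 and 0.454 in the authors' deposited table. For these 5 genes the unadjusted p thus stayed above 0.05. Their spread between libraries is unknown, so the size of the differences was not set against it.

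**Figure D3:**
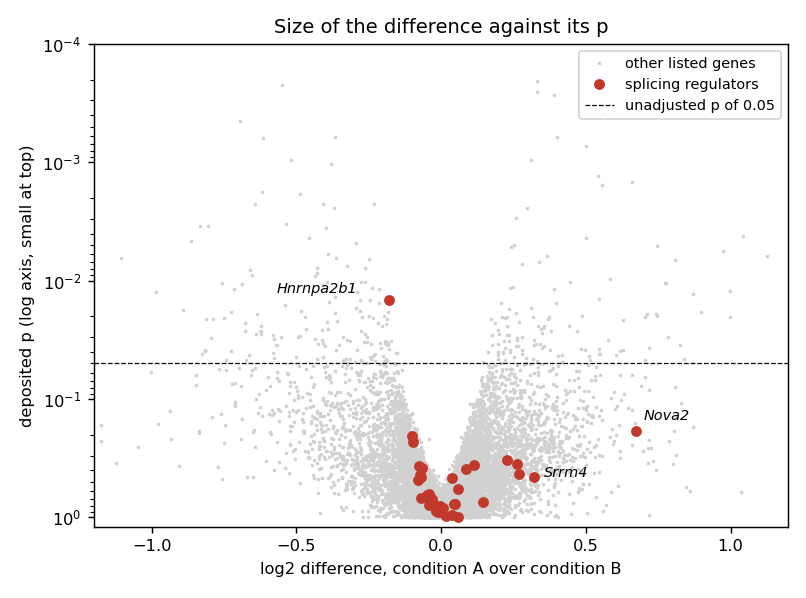
Log2 difference, condition A over condition B (x axis), against the deposited p on a log axis (small p at the top) for the 39 members (red) and the other listed genes within the axes (grey; genes beyond the axes are not drawn). Nova2 lies far to the right below the line at an unadjusted p of 0.05, and Hnrnpa2b1 is the member above that line.

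The remaining families were near 0. Rbfox1 and Rbfox2 had log2 differences of -0.08 (p = 0.371) and 0.06 (p = 0.579) in the authors' deposited table. Ptbp2 had -0.08 (p = 0.481) and Ptbp1 -0.0055 (p = 0.895), again in the authors' deposited table. The ELAV genes, which encode binders of AU-rich and U-rich RNA, ranged from -0.05 for Elavl2 (p = 0.652) to 0.11 for Elavl3 (p = 0.363) in the authors' deposited table, with Elavl1 at -0.010 and Elavl4 at 0.0044. Mbnl1 and Mbnl2, whose proteins bind YGCY motifs and move splicing towards adult patterns, stood at 0.04 (p = 0.467) and -0.03 (p = 0.752) in the authors' deposited table. The STAR genes had -0.04 for Khdrbs3 (p = 0.786), 0.04 for Khdrbs1, which encodes SAM68 (p = 0.952), and 0.05 for Khdrbs2 (p = 0.765) in the authors' deposited table.

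GC content of the transcripts differed between the joined families. These families were joined after their log2 differences were seen, so the contrast is descriptive only. The longest coding transcript had a median GC content of 52.2% in the 10 SRRM and CELF genes and 44.1% in the 13 SR, TRA2 and hnRNP genes, where 12491 listed genes with a matched transcript had a median of 50.2%. Over those 12491 genes the rank correlation of GC content with the log2 difference, A over B, was 0.12, and over the 39 members it was 0.38; genes of a table share the same libraries and are not independent. These genes were also cut by GC content into 4 bands of equal size. The lowest band (33.1% to 45.5%) had a median log2 difference of -0.012 with 43.2% above 0, and the highest band 0.020 with 58.2%. The bands between them had 0.012 with 56.3% and 0.020 with 59.9%, in order of GC content. The lowest band held 21 of the 39 members, 7 of them above 0, and the highest held 5 members, 4 of them above 0. Celf2 had a GC content of 42.1% and a log2 difference of 0.26. The 11 SR proteins outside the members had a median GC content of 51.9% with a median log2 difference of -0.036 and 8 of 11 below 0. Over all 118 other splicing genes the median log2 difference was -0.024. Their median GC content was 48.2%, over 116 with a matched transcript. The part of GC content in the differences of the members was not tested.

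**Figure D4:**
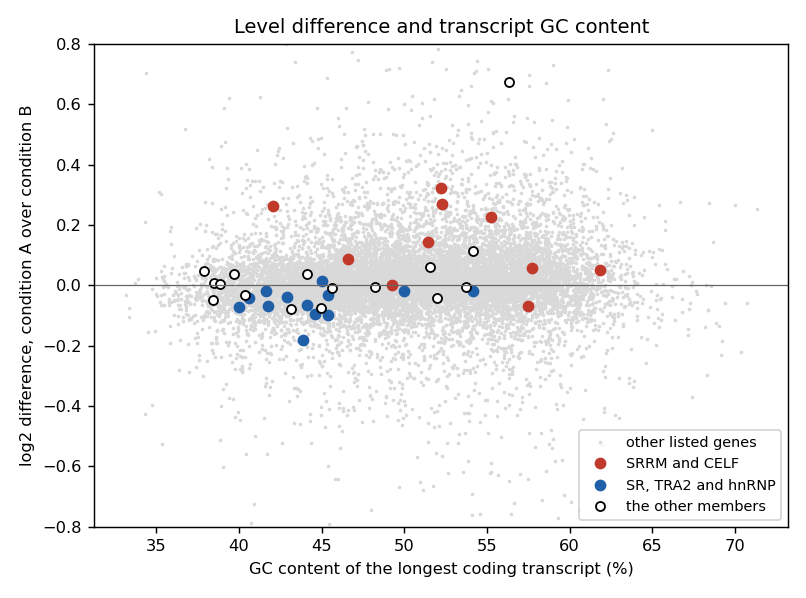
GC content of the longest coding transcript (x axis, %) against the log2 difference of level, condition A over condition B (y axis), for the listed genes that lie within the axes (grey) and the 39 members. The SR, TRA2 and hnRNP genes (blue) lie mostly below 0 and at lower GC content, with a median of 44.1%, and the SRRM and CELF genes (red) mostly above 0, with a median of 52.2%. The families were joined after their values were seen.

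Exon use within the regulators was compared over 696 bins, a bin being a stretch of exon counted on its own, and the table names its genotypes. A bin value describes use within its gene and can differ where the gene's level does not. None of the 696 bins passed: the adjusted p of every one was 1 in the authors' deposited table, while 0.00738% of all 149137 bins passed. At an unadjusted p under 0.05 there were 14 bins in 11 members, 5 higher and 9 lower in the knockout, which is 2.01% of the bins against 1.67% of all. In use, 95.3% of the member bins differed by less than 1.2-fold between the genotypes, against 94.8% of all bins. The 33 bins beyond 1.2-fold had a median mean count of 42.9, against 162 for all member bins.

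The edited regulators had no bin with an unadjusted p under 0.05. The 5 Nova1 bins had log2 changes, knockout over control, between -0.15 for E003 (p = 0.182) and 0.13 for E004 (p = 0.351) in the authors' deposited table, and the most covered bin, E001 with a mean count of 1010, had 0.07 (p = 0.456). The 42 Son bins lay between -0.20 and 0.13, 22 above 0 and 20 below, and the smallest p in the authors' deposited table was 0.175 at E014. Its most covered bins, E008 with a mean count of 5079 and E006 with 3459, stood at 0.025 and 0.0089 on the log2 scale in the authors' deposited table. In Nova2, 3 bins were listed, with p of 0.547 for E003, 0.0808 for E004 and 0.0718 for E005 and log2 values of -0.15, -0.22 and 0.35 in that order, by the authors' deposited table.

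Bins with an unadjusted p under 0.01 numbered 4 (0.575%, against 0.266% of all bins). Of these, 2 were in Celf2. E001 of Celf2, with a mean count of 1034, had a log2 change of 0.29 (p = 5.5e-04), and E026, with a mean count of 36.3, had -0.57 (p = 0.00542) in the authors' deposited table. In Tra2a, E005 had a log2 change of -0.54 (p = 0.0013) at a mean count of 50.6 in the authors' deposited table, while the other 8 bins of that gene lay between -0.06 and 0.07. In Srsf11, which encodes an SR-related protein that binds U-rich intron ends, E009 had -0.29 (p = 0.00295) at a mean count of 192 in the authors' deposited table. With the deposited p-values of the bins combined to 1 Simes p per gene, Tra2a came to 0.0117 and Celf2 to 0.017, and both had an adjusted p of 1 after Benjamini-Hochberg adjustment over 12669 genes, of which 3 passed.

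The remaining 10 bins with an unadjusted p under 0.05 were spread over Celf2, Celf3, Srrm1, Srrm2, Elavl2, Rbfox3, Hnrnph1, Hnrnpk and Srsf1. The widest of them, named after their values were seen, were E004 of Elavl2, at 0.53 (p = 0.0322) with a mean count of 21.6, and E009 of Srrm1, at -0.49 (p = 0.0343) with a mean count of 25.7, in the authors' deposited table. In Rbfox3, whose protein is the neuronal marker NeuN, 1 of 22 bins was among them, E026 at 0.22 (p = 0.0376) in the authors' deposited table, with 9 bins above 0 and 13 below. Hnrnpa2b1, the member with the smallest gene p, had no bin with a p under 0.05, and its 14 bins lay between -0.15 and 0.13.

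**Figure D5:**
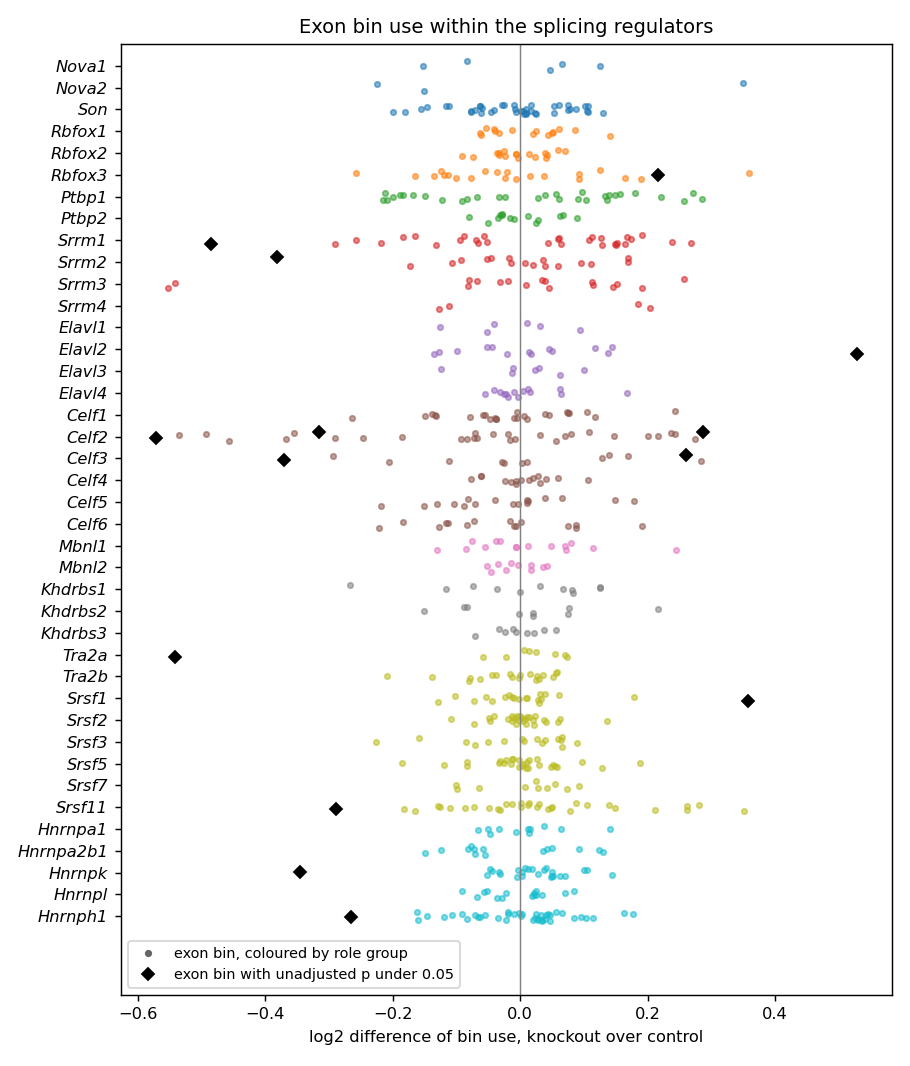
Log2 difference of bin use, knockout over control (x axis), for the 696 exon bins of the 40 members, 1 row per gene with a small vertical spread for legibility. Black diamonds mark the 14 bins with an unadjusted p under 0.05; most bins crowd near 0, and the bins of Celf2 spread from -0.57 to 0.29.

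The bins of Celf2 were described by bin number, a choice made after the values were seen. Of the 15 listed bins numbered E001 to E019, 12 had a log2 change above 0 (median 0.11), and of the 16 numbered E020 to E040 all were below 0 (median -0.22). The rank correlation of bin number with the log2 change was -0.68 over its 31 bins, which share reads and gene total. Of 6122 genes with at least 10 bins, 6.32% had a correlation at least as strong in either direction, and so did 12.5% of the 32 members with as many bins. Mbnl2 (-0.87 over 10 bins), Celf6 (0.76 over 15 bins) and Hnrnpa1 (-0.75 over 11 bins) were the others. Neighbouring bins of Celf2 had the same sign in 76.7% of pairs, and 17.2% of the 6122 genes and 15.6% of the 32 members had a share at least as high; the median over those genes was 66.7%. Whether bin numbers follow the position along the transcript is not given in the sources used here.

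Other genes of the splicing machinery were counted from 5 lists of 128 genes, of which 118 were in the gene table. Of these, 0 passed by the adjusted p over all genes, against 0.0197% of all genes. At an unadjusted p under 0.05 there were 2 (1.69%) in the authors' deposited table, against 1.86% of all genes. They were Hnrnph3 at -0.20 (p = 0.0241) and Snrpd3, a core protein of the spliceosomal particles, at -0.26 (p = 0.0329) in the authors' deposited table. By list, the median log2 difference was -0.036 for 11 other SR proteins, -0.042 for 31 other hnRNP and related genes, -0.020 for 22 other tissue regulators, -0.0083 for 45 core spliceosome genes and -0.021 for 9 SR protein kinases. In all, 72 of the 118 were below 0, against 7160 of all 15191 genes, and none of the 143 editing sites lay in them.

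The tissue and the other cell types it could hold were read from marker genes. Slc17a7, the vesicular glutamate transporter of cortical excitatory neurons, was listed with a mean count of 17440, and all markers of interneurons, astrocytes, oligodendrocytes, microglia and endothelium were listed as well. Of 5 striatal neuron markers 4 were listed. None of these lists had a member with an adjusted p under 0.05 in the authors' deposited table. At an unadjusted p under 0.05 there was 1 marker, the striatal gene Ppp1r1b, where 1.86% of all genes were under 0.05. Ppp1r1b had a log2 difference of 0.30 (p = 0.00242) in the authors' deposited table, a smaller p than that of any member. All 5 interneuron markers and 3 of the 4 listed striatal markers were above 0. Median log2 differences of the lists ran from -0.026 for endothelium to 0.15 for interneurons and 0.24 for striatal neurons. The members include neuronal genes, and the part of cell makeup in their differences was not tested.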

How the data were processed

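Per the labels, Trizol-extracted total RNA was depleted of rRNA and made into stranded libraries. The tools, per the submitters' processing notes and with no roles stated, include HTSeq, DESeq, TopHat2 2.0.6, SAMtools 01.19.0 and Bowtie2 2.02.0, with the mm9 build. The authors deposited 3 tables of comparisons between 6 knockout and 6 control libraries. Per the file headers, the gene table holds a mean normalized count (a signal in the form DESeq writes), a ratio of condition B over A, its log2 value, p-values and adjusted p-values. Its 2 columns of condition means were not used, since no genotype is named. Signs were turned to A over B. The deposited exon table holds a normalized count signal, a dispersion score, p-values and a log2 of control over Adar2, turned here to knockout over control. The deposited editing table holds the percent of edited reads per genotype. Neither the site caller nor the coverage is given in the sources used here.

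No test per library could be run, so the deposited p-values, adjusted by the authors over all features, were used at 0.05. A Simes p per gene and renewed Benjamini-Hochberg adjustment were computed over the whole tables (numpy 2.4.6, scipy 1.17.1, pandas 2.3.3). The calculations were checked on simulated p-values drawn independently. Real bins of a gene share reads, so this check does not show how well the Simes p holds in these data. Transcript GC content, exon length and codons came from GENCODE M21 (GRCm38), where 82.2% of listed genes had a coding transcript by symbol. Genes listed in the tables have a mean count of at least 15.0 and bins of at least 20.0; all 39 members in the gene table lie well above, from 402 up. The members and lists were chosen with earlier results of these data known. Named in full were the edited members, members with an unadjusted p under 0.05, the highest and lowest of each family, and bins with an unadjusted p under 0.01. Whether libraries came from separate animals is stated only as 6 cortices per genotype. If they did not, the p-values rest on technical spread.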

Additional observations from a re-analysis of the deposited data

How the results depend on the processing

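No paired analysis was possible because only group values were at hand. For the same reason no library could be left out. The counts of members with a changed level, of changed exon bins and of members with a changed bin stayed at 0 under each alternative run: Benjamini-Hochberg or Bonferroni adjustment over the listed features alone, an adjusted p under 0.1 or 0.01, a minimum mean count of 100 per gene or 50 per bin, leaving out bins shared with another gene (there were 0), and a Simes p per gene. Both editing sites still fell at an adjusted p under 0.01 and with a difference of at least 10 points. Restricted to bins averaging 50 counts or more, 9 member bins had an unadjusted p under 0.05 in place of 14, with fewer bins kept. The share of all bins at that cutoff was not computed, so these 9 bins were not set against a background. Of 24 alternatives in all, 23 left the result as it was, and many of them could not do otherwise. The deposited adjusted p of every member gene and bin lay far above 0.1, and no bin was shared. Both editing sites lay far beyond the cutoffs tried, so the tally does not measure robustness. The renewed adjustment for the 5 lists of other splicing genes, 5 of the 24, was added after the data were seen. Unknown depth per site and per library limits how small a difference could have been detected.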
